A study of Mus musculus with 31 samples.

Results

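GATA3 and 9 genes of the type 2 program of T helper cells were followed through 31 mouse libraries of CD4+ T cells and whole spleen. The 10 genes were chosen by name: the transcription factor Gata3, the cytokines Il4, Il5, Il13 and Il10, the receptor chain Il4ra, the signal transducer Stat6, the transcription factors Maf and Nfil3, and the prostaglandin receptor Ptgdr2. They are 10 of the 48211 genes that every count table lists. Nothing measured entered the choice of the names themselves, but it was made with earlier results of these data known.

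GATA3 is the transcription factor that commits a CD4+ T cell to the T helper 2 fate, and it binds at the cytokine genes that such cells express. IL-4 acts through its receptor, which holds the chain encoded by Il4ra, to phosphorylate STAT6, and STAT6 in turn drives Gata3, so that the pathway can maintain itself. T helper 2 cells direct immunity against worms and allergic inflammation, and a class of human peripheral T cell lymphomas is recognised by GATA3 expression.

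The mice model peripheral T cell lymphoma with a conditional fusion of Vav1, a guanine nucleotide exchange factor below the T cell receptor, to Myo1f, a class I myosin. Cre under control of Cd4, or CreERT2, which needs tamoxifen to act, switches the fusion on in T cells. The strain is labelled C57B/6, and ages are not given. In the pre-lymphoma set, 3 CD4+ libraries are called fusion/fusion here, since the fusion stands before and after the slash in their genotype label, 3 have a label that joins CD4-Cre-ERT2(WT) to the fusion by a slash and are called control/fusion, and 2 controls are CD4-Cre-ERT2(WT). In these labels the fusion is written Vav1Myo1ffl/wt;CD4CreERT2 (Vav1Myo1f), on either side of the joining slash. The names used here therefore do not state how many copies of the fusion a cell holds. The meaning of the joining slash is not given, nor whether each library is a separate animal. P-values in this set thus measure the spread between libraries. In the CD4-Cre set the tumor mice are CD4-CreVav1Myo1f fl/wt, with 4 CD4+ and 3 spleen libraries, and the controls CD4-Cre(WT), with 3 CD4+ and 3 spleen libraries. In the CD4-CreERT2 set the tumor mice are CD4-CreERT2Vav1Myo1f fl/wt, with 2 CD4+ and 3 spleen libraries, and the controls CD4-CreERT2 (WT), with 2 CD4+ and 3 spleen libraries. The label of each control group names a Cre and no fusion.

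Libraries held 12632196 to 37568512 gene counts, with a median of 29257595. In the pre-lymphoma set, control/fusion libraries 1 and 2 and fusion/fusion libraries 2 and 3 were under 20000000 counts and the other 4 above it. The CD4+ tumor library of mouse VM98 stood apart, with 34546 genes detected against 18368 to 24649 in the others, and the spleen tumor library of mouse VM294 of the CD4-CreERT2 set had the fewest. The number VM645 is carried by a CD4+ tumor library and by control libraries of another genotype. CD4+ libraries averaged 427 to 1031 CPM (counts scaled by TMM to libraries of the same size within a set) of Cd4, against 59.5 to 122 CPM in spleens. Myo1f, which the fusion transcript shares, averaged 164 ± 19.5 CPM in fusion/fusion and 159 ± 11.4 CPM in control/fusion cells (SD, n = 3 each), against 76.8 ± 8.66 CPM in controls (SD, n = 2). In CD4+ cells of CD4-Cre mice Myo1f averaged 316 ± 140 CPM in tumor libraries (SD, n = 4) and 358 ± 84.9 CPM in controls (SD, n = 3), so there the gene did not mark the fusion.

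Il4, Il13 and Il5 lie close together on mouse chromosome 11, in the files' annotation of GRCm38. Il4 (ENSMUSG00000000869) is at chr11:53602982-53618669 on the minus strand, Il13 (ENSMUSG00000020383) at chr11:53631324-53634702 on the minus strand and Il5 (ENSMUSG00000036117) at chr11:53720794-53725106 on the plus strand. The 250 bases before the start of each gene are shown because these 3 cytokines carry the largest changes below; they come from RefSeq on GRCm38.p6, where 8 of the 10 genes had a window, all but Il10 and Maf. Capitals mark matches on either strand. GATA sites were searched as AGATAA, as its variant AGATAG, and with another first letter as TGATAA, with its variant TGATAG. STAT6 sites were searched as TTCNNNNGAA, and the short site that MAF binds as TGCTGA. No matches overlap in the windows shown.
Il4, chr11:53618666-53618915, minus strand: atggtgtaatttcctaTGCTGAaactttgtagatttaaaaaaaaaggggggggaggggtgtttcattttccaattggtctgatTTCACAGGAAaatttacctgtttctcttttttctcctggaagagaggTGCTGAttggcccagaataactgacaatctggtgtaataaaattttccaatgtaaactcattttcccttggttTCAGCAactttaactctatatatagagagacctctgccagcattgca
Il13, chr11:53634703-53634952, minus strand: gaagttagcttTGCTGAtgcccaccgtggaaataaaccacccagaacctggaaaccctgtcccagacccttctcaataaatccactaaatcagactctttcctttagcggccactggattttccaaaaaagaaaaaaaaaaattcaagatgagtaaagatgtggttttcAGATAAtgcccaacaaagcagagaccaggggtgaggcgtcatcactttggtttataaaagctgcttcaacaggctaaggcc
Il5, chr11:53720544-53720793, plus strand: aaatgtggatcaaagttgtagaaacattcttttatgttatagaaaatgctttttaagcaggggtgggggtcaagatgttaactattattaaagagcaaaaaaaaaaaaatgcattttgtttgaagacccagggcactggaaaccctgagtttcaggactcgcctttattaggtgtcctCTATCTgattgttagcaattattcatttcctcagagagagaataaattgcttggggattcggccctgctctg
The Il4 window held a STAT6 match 167 to 158 bases before the start and 3 MAF sites, at 234 to 229, 120 to 115 and 47 to 42 bases, the last on the opposite strand. Il13 had a GATA match at 81 to 76 bases and a MAF site at 239 to 234 bases, and Il5 a GATA match on the opposite strand at 72 to 67 bases. Of all 32851 mouse windows of this length, 26.5% held a GATA match, 5.85% a STAT6 match, 16.1% a MAF site and 1.66% at least 2 of them. TTACGTAA and TTATGTAA, searched for NFIL3, were in 0.931% of windows and in none of the 3 shown. These matches describe letters and were not tested as binding sites. The Il4 window shown starts 4 bases from the gene start in the files, and those of Il13 and Il5 at it. A second RefSeq window of Il4, not shown, lies at a start 1331 bases inside the gene and held 1 match, the GATA letters TGATAG at 80 to 75 bases before that start. The windows of Stat6 and Ptgdr2, at the starts in the files, held no match to the 4 kinds of motif. Neither did those of Nfil3 and Il4ra, whose starts lie 34 and 151 bases from the starts in the files. The Gata3 window, 11434 bases from the start in the files, held 1 MAF site.

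The other genes lie apart: Gata3 (ENSMUSG00000015619) at chr2:9857078-9890034, Il10 (ENSMUSG00000016529) at chr1:131019845-131024974, Il4ra (ENSMUSG00000030748) at chr7:125552120-125579474, Stat6 (ENSMUSG00000002147) at chr10:127642986-127660957, Maf (ENSMUSG00000055435) at chr8:115682942-115707794, Ptgdr2 (ENSMUSG00000034117) at chr19:10937160-10942511 and Nfil3 (ENSMUSG00000056749) at chr13:52967209-52981073. Exons of another gene covered 39.0% of the exon length of Ptgdr2 (Ccdc86), 27.1% of that of Il5 (Gm12214) and 9.5% of that of Il4ra (Gm44876). Smaller parts were covered in Gata3 (5.8%, Gm13256 and 9230102O04Rik), Maf (5.3%, Gm15655) and Stat6 (0.9%, Nab2). Of these, 9230102O04Rik lies on the same strand as Gata3. Since the strand used in counting is not stated, the levels of all these genes are uncertain, most for those with the largest overlap.

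The pre-lymphoma set asked what CD4+ T cells express with the fusion before lymphoma. In fusion/fusion cells the cytokines Il4, Il13 and Il10 and the factors Gata3, Maf and Nfil3 were higher than in controls, while Stat6 was lower. Of the 9 genes tested, 6 rose (Gata3, Il4, Il13, Il10, Maf and Nfil3) and 1 fell (Stat6) by edgeR's quasi-likelihood test with Benjamini-Hochberg adjustment over all 16257 genes. In the same comparison 23.8% of all genes tested rose and 22.0% fell. The median log2 fold change was 1.58 over the 9 genes and -0.01 over all genes. The middle value of the 9 is that of Ptgdr2, which did not pass. Il13 and Ptgdr2 passed the filter on low counts only through libraries with the fusion label. Their place among the genes tested, in the counts against controls and in the median is therefore no separate support. In control/fusion cells 3 of the 9 rose against controls (Il4, Il10 and Maf), where 11.6% of all genes did, and 1 fell (Il4ra), where 8.70% of all genes did. Both comparisons share the same 2 control libraries.

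**Figure D1:**
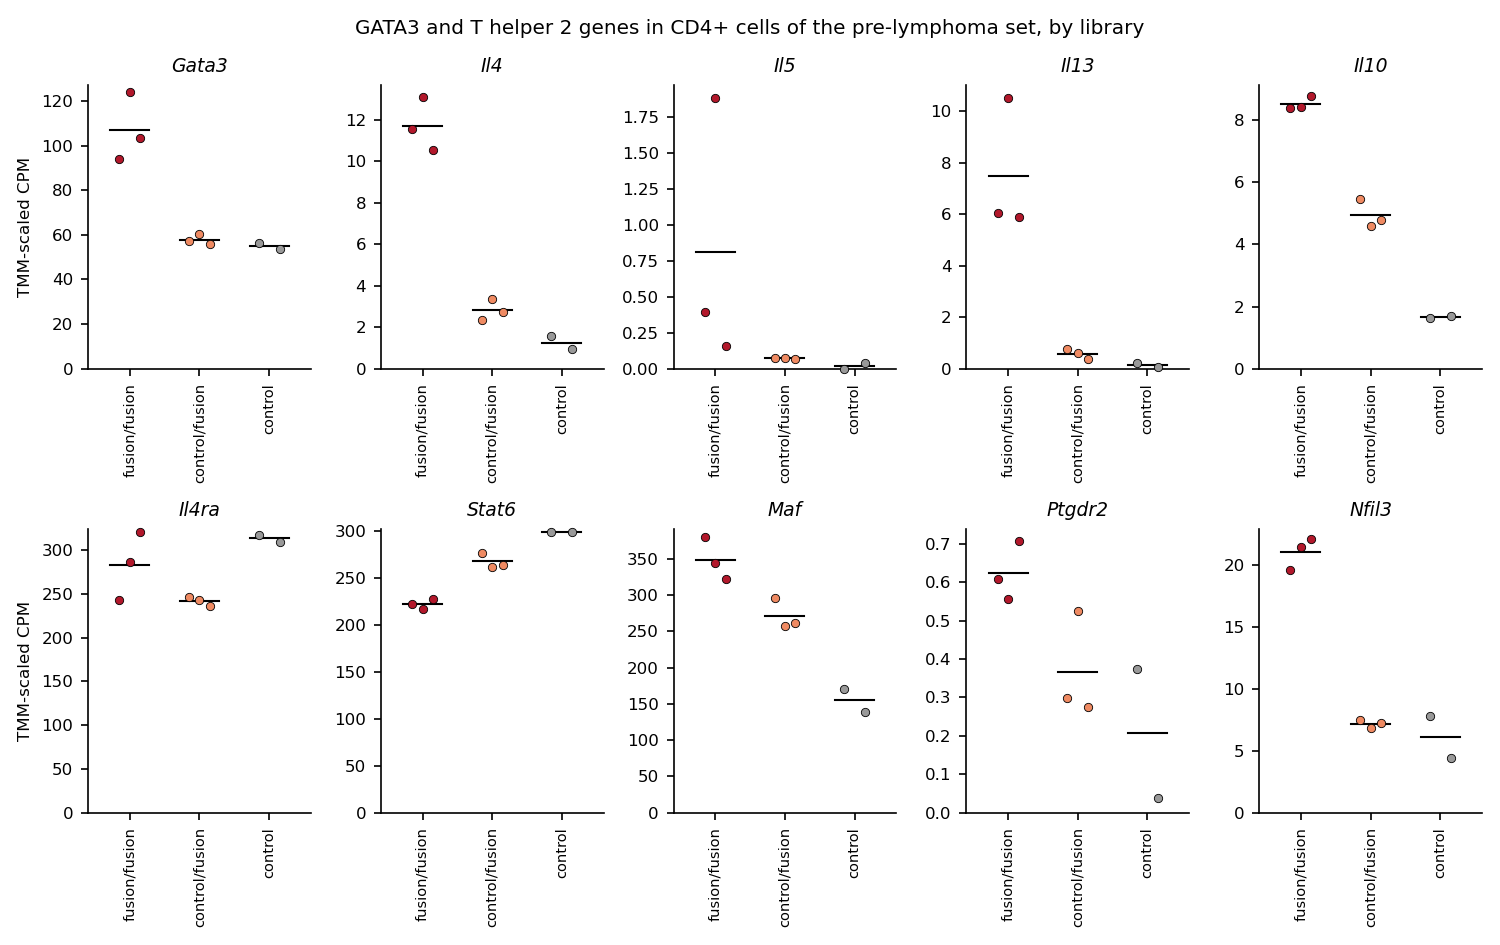
TMM-scaled CPM of the 10 genes in each CD4+ library of the pre-lymphoma set (y axis, from 0), with fusion/fusion, control/fusion and control libraries from left to right; points are libraries and lines are group means. Gata3, Il4, Il13, Il10, Maf and Nfil3 are each higher in the 3 fusion/fusion libraries than in the other 5; between control/fusion and control libraries Gata3 and Nfil3 overlap, and the other 4 of these genes do not.

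Gata3 stood at 93.9, 124 and 104 CPM in the 3 fusion/fusion libraries, against 57.4, 60.3 and 56.0 CPM in control/fusion and 56.2 and 53.8 CPM in control libraries. The 3 fusion/fusion libraries were higher than the other 5, and control/fusion and control libraries nearly coincided. The log2 fold change of fusion/fusion cells was 0.96 ± 0.11 (SE) against controls (adjusted p = 7.3e-05) and 0.89 ± 0.09 against control/fusion cells (adjusted p = 0.0004). For control/fusion against control it was 0.07 ± 0.10, with a 95% interval of -0.13 to 0.28 (adjusted p = 0.654).

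Il4, the cytokine that both results from and sustains the T helper 2 state, had 11.5, 13.1 and 10.5 CPM in fusion/fusion, 2.32, 3.38 and 2.72 CPM in control/fusion and 1.58 and 0.94 CPM in control libraries. The 3 groups did not overlap. Its log2 fold change was 3.22 ± 0.25 in fusion/fusion against control (adjusted p = 1.2e-05), 1.15 ± 0.26 in control/fusion against control (adjusted p = 0.0129) and 2.06 ± 0.21 in fusion/fusion against control/fusion cells (adjusted p = 0.00032). The call in control/fusion cells was lost without control library 2, with a log2 fold change of 0.82 and an adjusted p of 0.114. With a term for the depth class of the library, an alternative added after the data were seen, its adjusted p was 0.0501.

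Il13, which acts on epithelium and smooth muscle in allergic airways, showed the largest change of the 9 genes. It had 6.03, 10.5 and 5.88 CPM in fusion/fusion, 0.749, 0.600 and 0.379 CPM in control/fusion and 0.207 and 0.0783 CPM in control libraries. Again the 3 groups did not overlap. The log2 fold change in fusion/fusion cells was 5.66 ± 0.48 against controls (adjusted p = 1.7e-05) and 3.77 ± 0.36 against control/fusion cells (adjusted p = 0.00028). In control/fusion against control cells it was 1.89 ± 0.61 and did not pass (adjusted p = 0.0538), though it did with DESeq2 (adjusted p = 0.0282). With 5 and 2 counts in control libraries, Il13 passed the filter on low counts only through libraries with the fusion label.

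Il5, the cytokine that matures eosinophils, was scarce in this set and fell below the filter on low counts. It had 11, 27 and 2 counts in fusion/fusion, 1, 1 and 2 in control/fusion and 0 and 1 in control libraries. Over the groups, the ratio of fusion/fusion to control was 36.0, with a 95% counting interval of 6.10 to 1460, which covers counting error only. Of the 40 counts 27 came from library 2, which also had the highest Il4 and Il13. Without that library the ratio was 15.8 (2.38 to 673), and without control library 1 it was 18.5. Without control library 2, which holds the only control count, it was at least 5.83 against a floor of 3 counts. Leaving out libraries from these ratios, here and below, was added after the data were seen.

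Il10, a cytokine that restrains immune responses and is made by T helper 2 and regulatory T cells among others, rose in both pre-lymphoma groups. It had 8.39, 8.42 and 8.79 CPM in fusion/fusion, 5.47, 4.58 and 4.79 CPM in control/fusion and 1.62 and 1.68 CPM in control libraries. The groups did not overlap and libraries of a group lay close together. Log2 fold changes were 2.36 ± 0.17 in fusion/fusion against control (adjusted p = 8.1e-06), 1.58 ± 0.18 in control/fusion against control (adjusted p = 0.00057) and 0.79 ± 0.14 in fusion/fusion against control/fusion cells (adjusted p = 0.005).

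The signalling genes went the other way or did not pass. Stat6 fell in fusion/fusion cells, with 222, 217 and 227 CPM in fusion/fusion, 277, 262 and 264 CPM in control/fusion and 298 CPM in each of the 2 control libraries. The 3 groups were in order without overlap. Its log2 fold change was -0.43 ± 0.06 against controls (adjusted p = 0.00028) and -0.27 ± 0.05 against control/fusion cells (adjusted p = 0.0078). Il4ra had 243, 287 and 321 CPM in fusion/fusion, 246, 243 and 237 CPM in control/fusion and 318 and 309 CPM in control libraries, so that fusion/fusion libraries overlapped with both other groups. The log2 fold change of control/fusion against control was -0.37 ± 0.10 (adjusted p = 0.0229), a call lost when any of 4 libraries was left out (control 1 or 2, control/fusion 2 or 3; adjusted p from 0.0512 to 0.0969). For fusion/fusion against control it was -0.15 ± 0.10 and did not pass, with a 95% interval of -0.34 to 0.04 (adjusted p = 0.244).

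Maf, the transcription factor that drives Il4 and also Il10 and Il21, had 379.5, 345 and 322 CPM in fusion/fusion, 296, 257 and 262 CPM in control/fusion and 169.9 and 139 CPM in control libraries. The 3 groups did not overlap. The log2 fold change was 1.17 ± 0.11 in fusion/fusion (adjusted p = 2.4e-05) and 0.81 ± 0.11 in control/fusion cells (adjusted p = 0.001), each against control. Between fusion/fusion and control/fusion cells it was 0.36 ± 0.09 (adjusted p = 0.0214), and this call was lost without control/fusion 2 or 3 or fusion/fusion 1 or 2 (adjusted p 0.0529 to 0.0786).

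Nfil3, a basic leucine zipper factor induced by IL-4 in T and B cells, stood apart in fusion/fusion libraries, as Gata3 did. It had 19.6, 21.4 and 22.0 CPM in fusion/fusion, 7.49, 6.83 and 7.20 CPM in control/fusion and 7.84 and 4.43 CPM in control libraries. Fusion/fusion libraries were above the other 5, while control/fusion and control overlapped. Log2 fold changes were 1.78 ± 0.21 in fusion/fusion against control (adjusted p = 9.9e-05), 1.55 ± 0.18 against control/fusion (adjusted p = 0.00064) and 0.23 ± 0.21 in control/fusion against control cells, with an interval of -0.17 to 0.63 (adjusted p = 0.461).

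Ptgdr2 encodes the prostaglandin D2 receptor of T helper 2 cells, eosinophils and basophils. It stayed under 1 CPM throughout this set, at 0.607, 0.557 and 0.706 CPM in fusion/fusion, 0.300, 0.525 and 0.276 CPM in control/fusion and 0.373 and 0.0392 CPM in control libraries. The fusion/fusion libraries were the 3 highest, but the log2 fold change against control, 1.58 ± 0.64, did not pass (adjusted p = 0.0662). It passed when control library 1 was left out, with a log2 fold change of 3.77 (adjusted p = 0.0104).

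Set against each other within fusion/fusion cells per kb of exon, a scale that allows levels of different genes to be compared, the signalling genes and Maf were the most abundant. The mean levels per kb were 50.4 CPM for Stat6, 47.3 for Il4ra, 42.3 for Maf and 26.9 for Gata3. Nfil3 had 10.4, Il4 9.54, Il10 6.51, Il13 6.20, Il5 0.527 and Ptgdr2 0.236 CPM per kb. In control cells on the same scale Il4 had 1.03, Il10 1.26, Il13 0.119 and Gata3 13.8 CPM per kb. Of these 3 cytokines Il10 had the highest mean level per kb in controls and Il4 in fusion/fusion cells. Control library 1, however, had 1.28 CPM per kb of Il4 and 1.23 of Il10, so the control libraries disagree on this order.

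Fusion/fusion against control/fusion cells gave the same split of calls as fusion/fusion against control cells. Of the 9 genes 6 rose, where 9.59% of all genes tested did, and Stat6 fell, where 9.30% did. Of the 9 genes tested, 7 had ranges higher in fusion/fusion than in control libraries without overlap, where 33.1% of all genes tested did. Stat6 was lower without overlap, where 32.8% did, and Il4ra overlapped. Il13 and Ptgdr2, among the 7, passed the filter on low counts only through libraries with the fusion label. Their place in this count is therefore no separate support. Cells that express a gene more strongly and a larger share of cells that express it cannot be told apart in bulk RNA.

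Markers of other cells were measured beside these genes, since basophils, eosinophils, innate lymphoid cells and regulatory T cells can also hold their RNA. The 11 basophil and mast cell markers summed to 22.2 to 25.1 CPM in fusion/fusion and 27.2 to 39.8 CPM in control/fusion, against 21.3 to 22.7 CPM in control libraries. The 7 eosinophil markers summed to 75.4 to 119 CPM in fusion/fusion and 90.6 to 162 CPM in control/fusion, against 75.4 to 95.8 CPM in control libraries, where Ear6 and Epx were at 0. Neither sum set fusion/fusion libraries apart from both other groups. The 8 innate lymphoid and NK markers, a list that holds Arg1, summed to 115 to 172 CPM in fusion/fusion and 93.9 to 111 CPM in control/fusion, against 56.2 to 64.1 CPM in control libraries, where Calca was at 0. Without Arg1, a gene that macrophages also express, the other 7 summed to 93.0 to 103 CPM in fusion/fusion and 92.8 to 101 CPM in control/fusion, against 55.2 to 62.9 CPM in controls, so that fusion/fusion and control/fusion libraries overlapped. The 8 regulatory T cell markers summed to 1200 to 1330 CPM in fusion/fusion and 959 to 974 CPM in control/fusion, against 461 to 599 CPM in controls. The 5 plasma cell markers summed to 1250 to 1440 CPM in fusion/fusion and 579 to 698 CPM in control/fusion, against 415 to 646 CPM in controls. The 6 dendritic cell markers summed to 176 to 195 CPM in fusion/fusion and 175 to 240 CPM in control/fusion, against 70.8 to 99.9 CPM in controls. The 7 erythroid markers summed to 342 to 393 CPM in fusion/fusion and 129 to 611 CPM in control/fusion, against 55.8 to 129 CPM in controls. The 6 stromal and endothelial markers summed to 193 to 202 CPM in fusion/fusion and 241 to 246 CPM in control/fusion, against a median of 245 CPM in controls. The regulatory T cell, plasma cell and 8-gene innate lymphoid and NK sums were higher in fusion/fusion than in both other groups without overlap. The erythroid and dendritic cell sums were higher than in controls without overlap, as was the innate lymphoid and NK sum without Arg1. That sum without Arg1 was not among the planned lists. The part of these cells in the results was not tested. T cell markers (8 genes) summed to 4690 to 4950 CPM in fusion/fusion and 4190 to 4590 CPM in control/fusion, against 4140 to 4370 CPM in controls.

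The rest of the pathway was read from 7 lists, described by counts with no test of a list. Of 14 surface genes of T helper 2 cells, 13 rose in fusion/fusion against control cells and 0 fell, beside the 23.8% and 22.0% of all genes, with a median log2 fold change of 1.75 against -0.01 over all genes. Il1rl1, the IL-33 receptor, averaged 52.8 ± 7.27 CPM in fusion/fusion (SD, n = 3) and 7.47 ± 0.0463 CPM in control cells (SD, n = 2), a log2 fold change of 2.82 ± 0.19 (adjusted p = 4.5e-06). The chemokine receptors Ccr8 and Ccr4 had log2 fold changes of 2.50 ± 0.23 (adjusted p = 2.9e-05) and 2.16 ± 0.14 (adjusted p = 4.5e-06). The exception was Ccr3, the eotaxin receptor, at -0.24 (adjusted p = 0.442); it is named because it stood alone, after its value was seen. In control/fusion against control cells 7 of the 14 rose, beside 11.6% of all genes, and 1 fell, beside 8.70%, with a median of 0.77. There Ccr8 changed by 1.71 ± 0.23 (adjusted p = 0.0013), Ccr4 by 1.52 ± 0.14 (adjusted p = 0.00023) and Il1rl1 by 1.35 ± 0.18 (adjusted p = 0.0013). Many of these surface genes are also expressed by regulatory T cells, whose markers moved as above.

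The other cytokines listed gave 5 genes tested of 9, and 5 of them rose in fusion/fusion against control cells, beside 23.8% of all genes. Lif averaged 6.54 ± 0.404 CPM in fusion/fusion (SD, n = 3) and 1.91 ± 0.989 CPM in control cells (SD, n = 2), a log2 fold change of 1.77 ± 0.29 (adjusted p = 0.00072). Tnfsf11, the ligand of RANK, changed by 1.59 ± 0.19 (adjusted p = 0.00011) and Il21, made by follicular helper cells, by 1.28 ± 0.36 (adjusted p = 0.0147). In control/fusion against control cells 2 rose, beside 11.6% of all genes. Tnfsf11 changed there by 1.03 ± 0.19 (adjusted p = 0.0048) and Lif by 0.95 ± 0.29 (adjusted p = 0.0413).

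The feedback and target genes of STAT6, a list that also holds Il4ra, gave 12 genes tested. In fusion/fusion against control cells 8 rose and 2 fell, beside 23.8% and 22.0% of all genes, with a median of 0.99. The 3 with the largest changes are made by macrophages stimulated with IL-4, and their spread between libraries was wide. Arg1, arginase, averaged 41.3 ± 31.9 CPM in fusion/fusion (SD, n = 3) and 1.11 ± 0.0976 CPM in control cells (SD, n = 2), a log2 fold change of 5.20 ± 0.86 (adjusted p = 0.00081). Retnla changed by 5.16 ± 1.43 (adjusted p = 0.0139) and Chil3 by 3.85 ± 0.79 (adjusted p = 0.0027). The 10 macrophage and monocyte markers summed to 1400 to 1840 CPM in fusion/fusion and 1770 to 3500 CPM in control/fusion, against 1340 to 1700 CPM in control libraries. The cytokine signalling suppressor Socs2 changed by 1.46 ± 0.14 in fusion/fusion (adjusted p = 2.8e-05) and by 0.89 ± 0.14 in control/fusion cells (adjusted p = 0.0022), whereas Socs3 fell by 0.91 ± 0.10 on the log2 scale in control/fusion cells (adjusted p = 0.00052).

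Of 10 receptor chains and kinases tested, 3 rose and 1 fell in fusion/fusion against control cells, beside 23.8% and 22.0% of all genes, with a median log2 fold change of 0.06 against -0.01 over all genes. Csf2rb, the chain that IL-5 shares with IL-3 and GM-CSF, changed by 0.72 ± 0.15 (adjusted p = 0.0027) and Jak2 by 0.49 ± 0.09 (adjusted p = 0.0012). Jak1, the kinase bound to the IL-4 receptor, averaged 753 ± 51.2 CPM in fusion/fusion (SD, n = 3) and 1051 ± 46.7 CPM in control cells (SD, n = 2), a log2 fold change of -0.48 ± 0.08 (adjusted p = 0.0009). In control/fusion cells 4 of the 10 rose, beside 11.6% of all genes, and 0 fell, with a median of 0.16.

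Transcription factors that act beside GATA3 split in direction, with 7 of 17 higher and 4 lower in fusion/fusion against control cells, beside 23.8% and 22.0% of all genes, and a median of 0.13. Bhlhe40 changed by 1.09 ± 0.15 (adjusted p = 0.00032) and Batf, an AP-1 factor needed for T helper differentiation, by 0.96 ± 0.09 (adjusted p = 3.8e-05). Satb1, a chromatin organiser of T cells, averaged 237 ± 16.1 CPM in fusion/fusion (SD, n = 3) and 563 ± 5.21 CPM in control cells (SD, n = 2), a log2 fold change of -1.25 ± 0.08 (adjusted p = 2.7e-06). In control/fusion cells Satb1 changed by -0.77 ± 0.08 (adjusted p = 0.00033) and Tcf7 by -0.39 ± 0.09 (adjusted p = 0.0143). There 1 of the 17 rose, Prdm1 by 0.29 ± 0.08 (adjusted p = 0.0319), beside 11.6% of all genes.

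Genes of rival T helper lineages rose as well, 8 of 15 in fusion/fusion against control cells, beside 23.8% of all genes. Another 2 were lower, beside 22.0% of all genes, and the median was 0.54. Ifng, the T helper 1 cytokine, averaged 4.04 ± 0.304 CPM in fusion/fusion (SD, n = 3) and 1.61 ± 0.106 CPM in control cells (SD, n = 2), a log2 fold change of 1.33 ± 0.28 (adjusted p = 0.0034). Foxp3, the factor of regulatory T cells, changed by 1.17 ± 0.09 (adjusted p = 9.1e-06).

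Genes beside Il4, Il13 and Il5 on chromosome 11 gave 3 higher and 2 lower of 9 tested in fusion/fusion against control cells, near the 23.8% and 22.0% of all genes, with a median of 0.20. Sept8, a septin gene, averaged 26.4 ± 3.39 CPM in fusion/fusion (SD, n = 3) and 9.81 ± 1.03 CPM in control cells (SD, n = 2), a log2 fold change of 1.43 ± 0.17 (adjusted p = 0.0001). Aff4, a subunit of the super elongation complex, changed by -0.67 ± 0.09 (adjusted p = 0.00031). Rad50, a DNA repair gene that holds the control region of the T helper 2 cytokine locus, was named after its value was seen: it changed by 0.06 ± 0.09 and did not pass (adjusted p = 0.64).

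**Figure D2:**
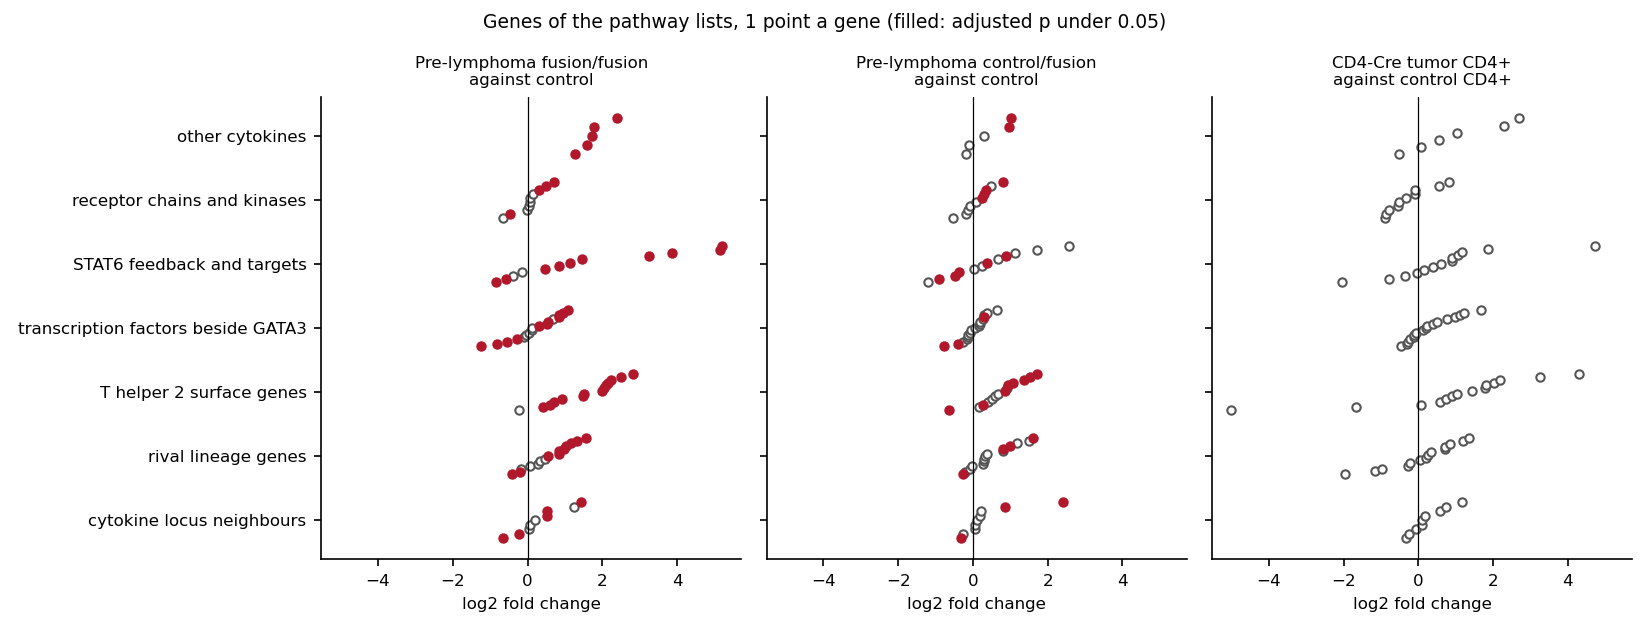
Log2 fold change (x axis) of each tested gene in 7 lists around the pathway (y axis), in fusion/fusion and control/fusion CD4+ cells against control cells and in CD4-Cre tumor CD4+ cells against control CD4+ cells; filled points have an adjusted p under 0.05. Of the 14 T helper 2 surface genes, 13 are filled and to the right of 0 in fusion/fusion cells; no list gene passed in the tumor cells.

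CD4+ cells of CD4-Cre tumor mice asked whether the pattern was present in lymphoma. The 4 tumor libraries had more Il4, Il13, Maf and Nfil3 than the 3 control libraries without overlap, 4 of the 9 genes tested, where 8.33% of all genes tested were higher and 9.08% lower without overlap. The tumor libraries differed widely among themselves, and 0 of the 9 passed by edgeR's quasi-likelihood test. In this comparison 3 genes of 17841, or 0.0168%, rose and 25, or 0.140%, fell, while 2699 were under 0.05 before adjustment. So were 6 of the 9 genes, and 6 were called higher by DESeq2, which called 3.69% of all genes higher: Gata3, Il4, Il13, Il10, Maf and Nfil3. The median log2 fold change was 2.09 over the 9 genes and 0.06 over all genes. Il13, with 0, 0 and 1 count in controls, passed the filter on low counts only through tumor libraries. Its place in these counts and in the median is therefore no separate support. Without the library of VM98, edgeR called 3 higher, Il10, Maf and Nfil3, with 1.44% of all genes, and without the tumor library of VM645 it called 2, Il4 and Maf, with 0.0916% of all genes.

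Gata3 had 332, 136, 222 and 236.5 CPM in tumor libraries of mice VM388, VM58, VM645 and VM98, against 137, 103 and 108 CPM in controls VM211, VM216 and VM645. Tumor VM58 lay inside the control range and the other 3 above it. The log2 fold change was 0.96 ± 0.29, with a 95% interval of 0.40 to 1.52 (adjusted p = 0.186; DESeq2 adjusted p = 0.0366).

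Il4 had 113, 54.7, 16.1 and 40.0 CPM in the same order of tumor libraries, against 7.75, 8.10 and 6.87 CPM in controls. Each tumor library was above the controls, and the tumors spanned a wide range, highest in VM388. The log2 fold change was 2.84 ± 0.60 (95% interval 1.67 to 4.02, adjusted p = 0.101). Il13 had 108, 45, 6 and 16 counts in tumor libraries, against 0, 0 and 1 count in controls, again with VM388 first and VM645 last. The ratio over the groups was 165, with a counting interval of 29.3 to 6560. It was 88.3 without tumor VM388, 104 and 110 without controls VM211 and VM216, and at least 38.8 without the control library of VM645, which holds the 1 count. Il5 had 8.49, 0.661, 0.549 and 2.94 CPM in tumor libraries, against 0.187, 0 and 1.79 CPM in controls, so its groups overlapped (log2 fold change 2.22 ± 1.55, adjusted p = 0.554).

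Il10 had 39.6, 59.9, 42.6 and 8.41 CPM in tumor libraries, against 10.2, 5.31 and 4.26 CPM in controls. Tumor VM98 lay inside the control range and the other 3 were above it, with a log2 fold change of 2.48 ± 0.64 (95% interval 1.22 to 3.74, adjusted p = 0.149). Maf had 333, 286, 286 and 203 CPM in tumor libraries, against 107, 107 and 92.0 CPM in controls. All 4 tumor libraries were above the 3 controls, and its log2 fold change of 1.41 ± 0.19 had the smallest adjusted p of the 9 genes, 0.0517. Nfil3 had 136, 76.3, 161 and 33.4 CPM in tumor libraries, against 25.0, 26.4 and 18.4 CPM in controls, with no overlap and a log2 fold change of 2.09 ± 0.50 (adjusted p = 0.128).

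Stat6 was at 255, 299.6, 197 and 268 CPM in tumor libraries, against 382, 327 and 293 CPM in controls, and Il4ra at 190, 268, 195 and 113 CPM in tumor libraries, against 154, 133 and 139 CPM in controls. Both overlapped between groups, with log2 fold changes of -0.42 ± 0.19 for Stat6 (adjusted p = 0.348) and 0.40 ± 0.27 for Il4ra (adjusted p = 0.543). Ptgdr2 had 0 counts in each of the 4 tumor libraries, against 14, 1 and 18 counts in controls. Against a floor of 3 counts over the tumor group, it was at least 11.7-fold lower in tumor cells, a bound that covers counting error only and was 7.51 without the control library of VM645.

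**Figure D3:**
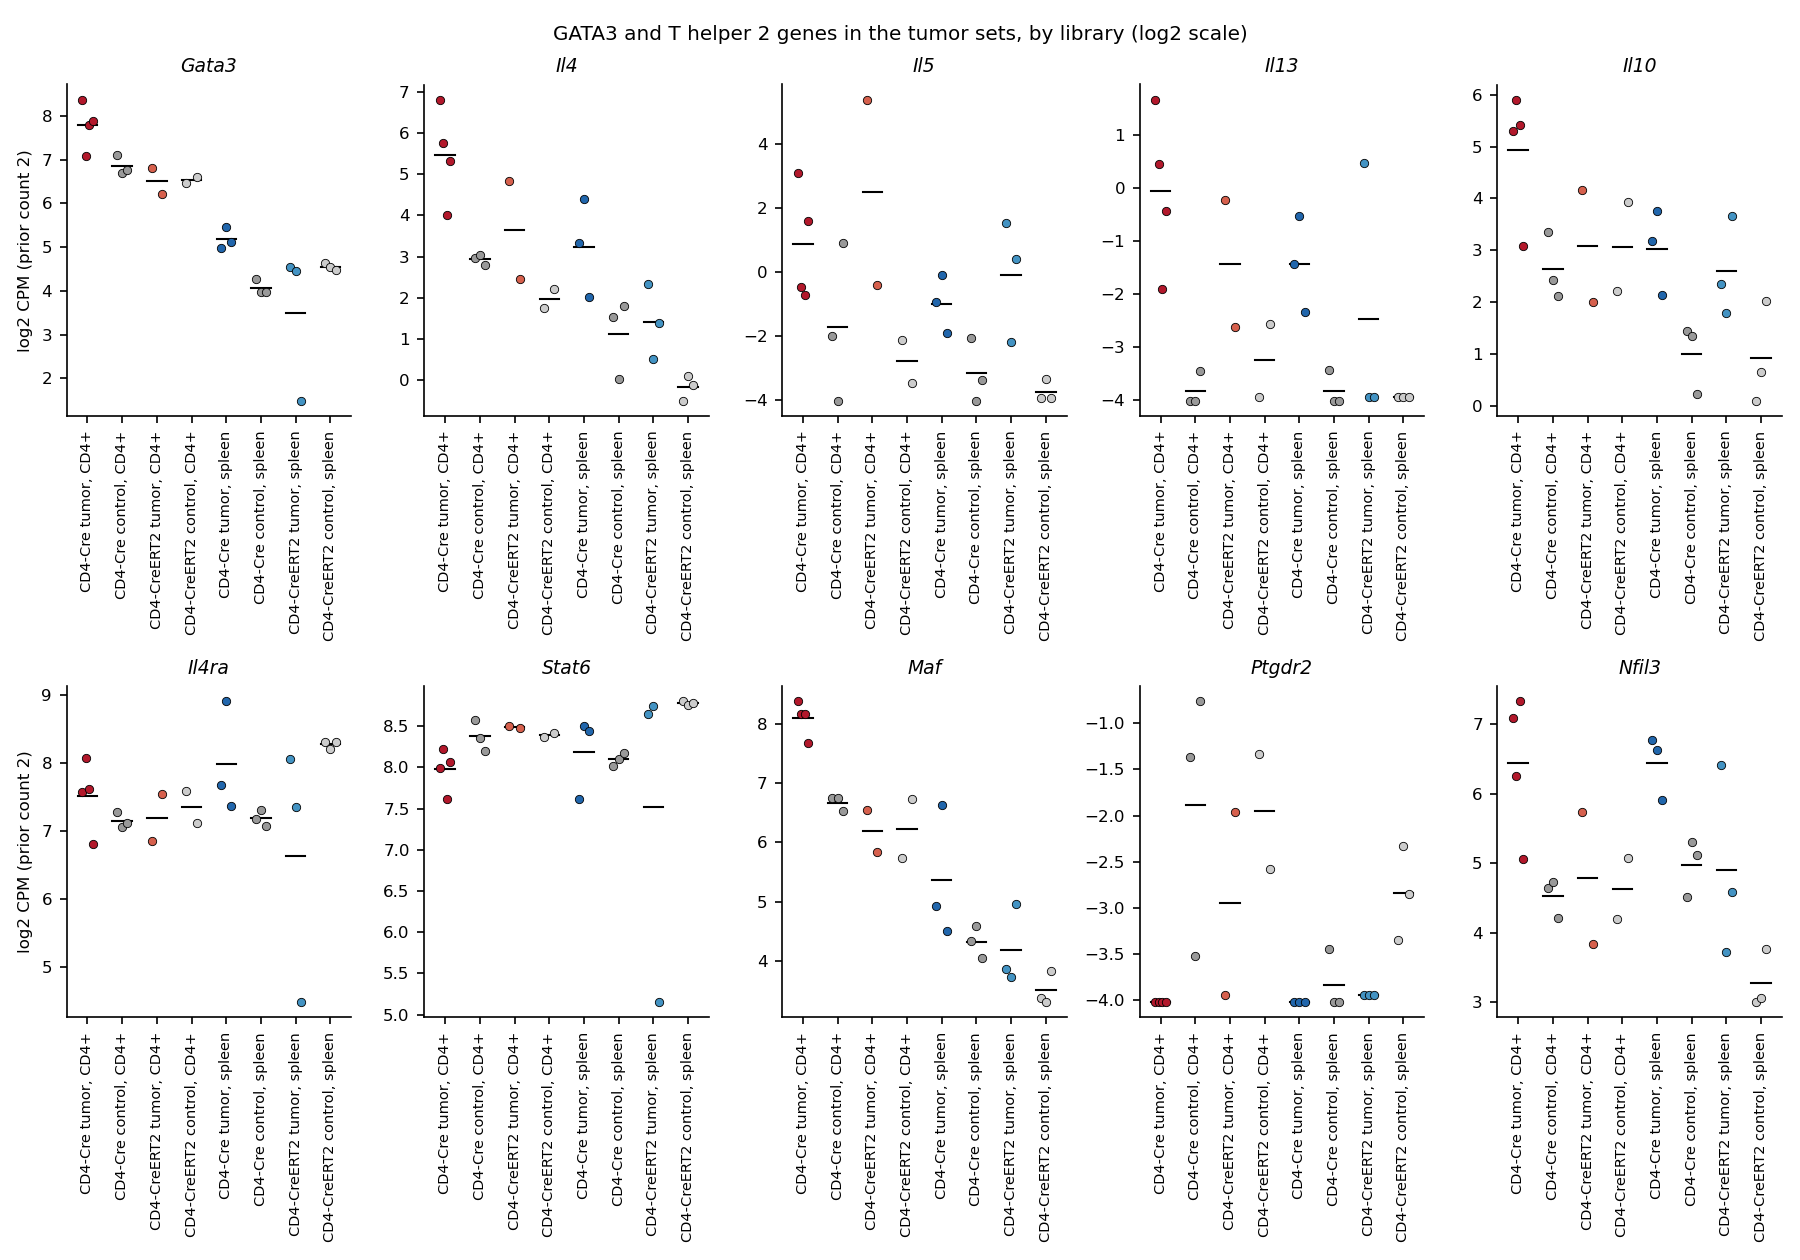
Log2 CPM (prior count 2; y axis, a log scale) of the 10 genes in each library of the CD4-Cre and CD4-CreERT2 sets, with tumor left of control libraries within each set and tissue; lines are group means. Il4 and Nfil3 are higher in all 4 CD4-Cre tumor CD4+ libraries than in their controls, and Ptgdr2 lies at the bottom of its scale in all 4.

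Of the pathway lists, 0 genes passed in CD4-Cre tumor cells by edgeR's test, and the surface genes again had the highest median, 1.24. Tnfrsf4, the costimulatory receptor OX40, averaged 1646 ± 1458 CPM in tumor cells (SD, n = 4) and 350 ± 5.97 CPM in control cells (SD, n = 3). Icos, another costimulatory receptor, averaged 879 ± 400 CPM in tumor cells (SD, n = 4) and 248 ± 19.6 CPM in control cells (SD, n = 3). Regulatory T cell markers (8 genes) summed to 789 to 4010 CPM in tumor libraries, against 757 to 868 CPM in controls. Basophil and mast cell markers were lower or alike, with sums of 7.27 to 47.5 CPM in tumor libraries, against 40.9 to 74.5 CPM in controls, where Mcpt4 and Tpsb2 were at 0. Macrophage and monocyte markers summed to 142 to 1340 CPM in tumor libraries, against 2370 to 3720 CPM in controls. T cell markers (8 genes) summed to 5170 to 7550 CPM in tumor libraries, against 4120 to 4750 CPM in controls, and B cell markers (8 genes) to 66.5 to 859 CPM in tumor libraries, against 810 to 1300 CPM in controls. Eosinophil markers (7 genes) summed to 17.3 to 72.8 CPM in tumor libraries, against 114 to 214 CPM in controls, and dendritic cell markers (6 genes) to 27.8 to 114 CPM in tumor libraries, against 268 to 457 CPM in controls. The part of these other cells in the results was not tested.

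In whole spleens of the same model the mean of each of the 7 genes tested was higher in tumor than in control mice, and 0 of the 7 passed, where 0% of all genes did. Their median log2 fold change was 1.37, against 0.04 over all genes. Gata3 had 31.8, 43.7 and 34.5 CPM in tumor spleens of VM388, VM58 and VM98, against 19.4, 15.6 and 15.6 CPM in controls. The groups did not overlap, with a log2 fold change of 1.13 ± 0.24 (95% interval 0.66 to 1.60, adjusted p = 0.207). Il4 had 9.94, 21.1 and 3.95 CPM in tumor spleens, against 2.82, 0.954 and 3.41 CPM in controls (log2 fold change 2.31 ± 0.75, adjusted p = 0.282). Nfil3 had 109.5, 99.5 and 60.1 CPM in tumor spleens, against 22.7, 39.6 and 34.6 CPM in controls (log2 fold change 1.48 ± 0.32, adjusted p = 0.207). Both were higher in each tumor spleen than in any control. Of the 7 genes, 5 had higher ranges in tumor spleens without overlap (Gata3, Il4, Il10, Il4ra and Nfil3), where 11.1% of all genes tested did and 11.3% had lower ones. Il10 had 9.02, 13.4 and 4.36 CPM in tumor spleens, against 2.67, 2.46 and 1.11 CPM in controls (log2 fold change 2.12 ± 0.57, adjusted p = 0.248). Il13 had 8, 26 and 4 counts in the tumor spleens, in the same order, against 1, 0 and 0 in controls VM211, VM216 and VM645, a ratio of 33.7 over the groups with a counting interval of 5.69 to 1370. It was 18.6 without tumor VM58, and at least 6.90 without control VM211, which holds the 1 count. Maf, Il4ra and Stat6 had log2 fold changes of 1.37 ± 0.58, 0.99 ± 0.44 and 0.15 ± 0.29, and none passed (adjusted p 0.358, 0.373 and 0.847). By edgeR's test 0 of 17050 genes passed, with 2373 at an unadjusted p under 0.05, 5 of them among the 7, and DESeq2 called 4 of the 7 higher (Gata3, Il4, Il10 and Nfil3), with 2.51% of all genes. Without VM98, edgeR called 2 higher, Il10 and Nfil3, with 1.09% of all genes. Basophil and mast cell markers (11 genes) summed to 24.8 to 1850 CPM in tumor spleens, against 142 to 417 CPM in controls, and neutrophil markers (6 genes) to 150 to 73300 CPM, against 6620 to 47700 CPM in controls. Regulatory T cell markers (8 genes) summed to 156 to 518 CPM in tumor spleens, against 121 to 137 CPM in controls. Eosinophil markers (7 genes) summed to 26.8 to 155 CPM, against 178 to 236 CPM in controls. B cell markers (8 genes) were lower without overlap, at 1710 to 6030 CPM, against 6560 to 7440 CPM in controls. T cell markers (8 genes) overlapped, at 933 to 1980 CPM, against 1080 to 1590 CPM in controls. Cd4 itself averaged 122 ± 81.4 CPM in tumor and 59.5 ± 3.66 CPM in control spleens (SD, n = 3 each). The part of these cells was not tested.

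In CD4-CreERT2 mice Gata3 did not separate tumor from control CD4+ cells. It had 112 and 74.8 CPM in tumors VM231 and VM236, against 88.1 and 97.2 CPM in controls, with a log2 fold change of 0.02 ± 0.29 and a 95% interval of -0.55 to 0.60 (adjusted p = 1.0). By edgeR's test 0 of the 8 genes tested passed, and 0 of 17341 genes (0%) did, with 896 at an unadjusted p under 0.05; DESeq2 called 1 of the 8 higher, Il5, with 1.37% of all genes. The median log2 fold change of the 8 genes was 0.13, against 0.01 over all genes. With 2 libraries in each group, the precision is low.

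The 2 tumors differed from each other in the cytokines. Il5 had 41.3 CPM in VM231 and 0.696 CPM in VM236, against 0.166 and 0.0256 CPM in controls, the highest single Il5 level of all 31 libraries. Il4 had 28.6 CPM in VM231 and 5.45 CPM in VM236, against 3.29 and 4.56 CPM in controls. The log2 fold changes, 7.80 ± 2.25 for Il5 (adjusted p = 0.916) and 2.12 ± 0.82 for Il4 (adjusted p = 0.953), passed in edgeR when VM236 was left out, at 8.83 (adjusted p = 0.00027) and 2.87 (adjusted p = 0.0021), where the lone tumor library is assumed to vary as the controls do and 10.4% of all genes were called higher. Il13 had 0.780 and 0.0960 CPM in tumor libraries, against 0 and 0.102 CPM in controls, and Ptgdr2 had 0 and 0.192 CPM in tumor libraries, against 0.332 and 0.102 CPM in controls. Il10 had 17.9 and 3.93 CPM in tumor libraries, against 4.55 and 15.1 CPM in controls, and Nfil3 53.3 and 14.2 CPM in tumor libraries, against 18.4 and 33.5 CPM in controls, so that these overlapped. VM231 was the higher tumor library for Gata3 and each of the 4 cytokines. Read from the counts, VM231 was male and VM236 and the controls were female, so sex and this tumor cannot be told apart. Il5, with 5 and 1 counts in controls, passed the filter on low counts only through tumor libraries. Basophil and mast cell markers summed to 47.5 to 102 CPM in these tumor libraries, against 20.8 to 21.4 CPM in controls, and macrophage and monocyte markers to 1430 to 3690 CPM, against 327 to 560 CPM in controls. Neutrophil markers (6 genes) summed to 5687 CPM in VM231 and 73.7 CPM in VM236, against 39.3 to 58.0 CPM in controls, and dendritic cell markers (6 genes) to 480 CPM in VM231 and 175 CPM in VM236, against 78.2 to 132 CPM in controls. Erythroid markers (7 genes) summed to 98.2 to 109 CPM in tumor libraries, against 7.67 to 12.7 CPM in controls, and innate lymphoid and NK markers (8 genes) to 117 to 205 CPM, against 98.2 to 104 CPM in controls. B cell markers (8 genes) were lower, at 443 to 1390 CPM in tumor libraries, against 2700 to 2860 CPM in controls, as were regulatory T cell markers (8 genes), at 433 to 575 CPM, against 669 to 730.0 CPM in controls, and plasma cell markers (5 genes), at 1360 to 3470 CPM, against 6510 to 6590 CPM in controls. The part of these cells in the cytokine levels was not tested.

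In CD4-CreERT2 spleens Gata3 had 23.4, 21.9 and 2.74 CPM in tumors VM231, VM236 and VM294, against 24.8, 23.3 and 22.2 CPM in controls. Its log2 fold change was -0.54 ± 0.70 (adjusted p = 0.681) and -0.04 without VM294. Stat6 had 402, 428 and 35.4 CPM in the tumor spleens in the same order, against 431 to 447 CPM in controls. Il4ra had 267, 164 and 22.3 CPM in them, against 295 to 318 CPM in controls. Both were lower in each tumor spleen than in any control, and lowest in VM294. Read from the counts, VM231 and VM294 were male, and VM236 and the controls female. Il4 had 5.0, 1.35 and 2.54 CPM in tumor spleens, against 0.635, 1.01 and 0.845 CPM in controls, higher in each tumor than in any control (log2 fold change 1.86 ± 0.64, adjusted p = 0.196). Il5 had 70, 5 and 19 counts in tumor spleens VM231, VM236 and VM294, against 0, 1 and 0 in controls A1, A2 and A3, a ratio of 113 over the groups with a counting interval of 19.8 to 4520. The ratio was 44.5 without VM231, 193 without VM236, 74.3 without control A1, and at least 24.8 without control A2, which holds the 1 count. The 33 counts of Il13 in the tumor spleens all came from VM231, against 0 in controls, at least 13.3-fold higher against a floor of 3 counts over the control group. That bound was 23.8 without VM236 and 8.69 to 9.11 without 1 of the controls; without VM231 both groups are at 0. Of the 7 genes tested 0 passed by edgeR's test, and of 16163 genes 0 (0%) did, with 3241 at an unadjusted p under 0.05, while DESeq2 called 2 of the 7 higher, Il4 and Nfil3, with 8.31% of all genes. Neutrophil markers (6 genes) summed to 2340 to 99400 CPM in tumor spleens, against 334 to 786 CPM in controls, and plasma cell markers (5 genes) to 3110 to 67700 CPM, against 2670 to 5720 CPM in controls. Basophil and mast cell markers (11 genes) summed to 259 to 989 CPM in tumor spleens, against 53.3 to 68.1 CPM in controls, where Mcpt4 and Tpsb2 were at 0. Eosinophil markers (7 genes) summed to 108 to 173 CPM in tumor spleens, against 36.0 to 58.3 CPM in controls, and macrophage and monocyte markers (10 genes) to 2080 to 3910 CPM, against 498 to 633 CPM in controls. Erythroid markers (7 genes) were also higher, at 202 to 1290 CPM in tumor spleens, against 8.53 to 19.3 CPM in controls, and B cell markers (8 genes) lower, at 1050 to 5920 CPM, against 9080 to 9400 CPM in controls. T cell markers (8 genes) overlapped, at 914 to 2540 CPM in tumor spleens, against 1360 to 1800 CPM in controls. The sums of basophil and mast cell, eosinophil, macrophage and erythroid markers were higher in tumor than in control spleens without overlap, as Il4 and Il5 were. The part of all these cells was not tested.

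**Figure D4:**
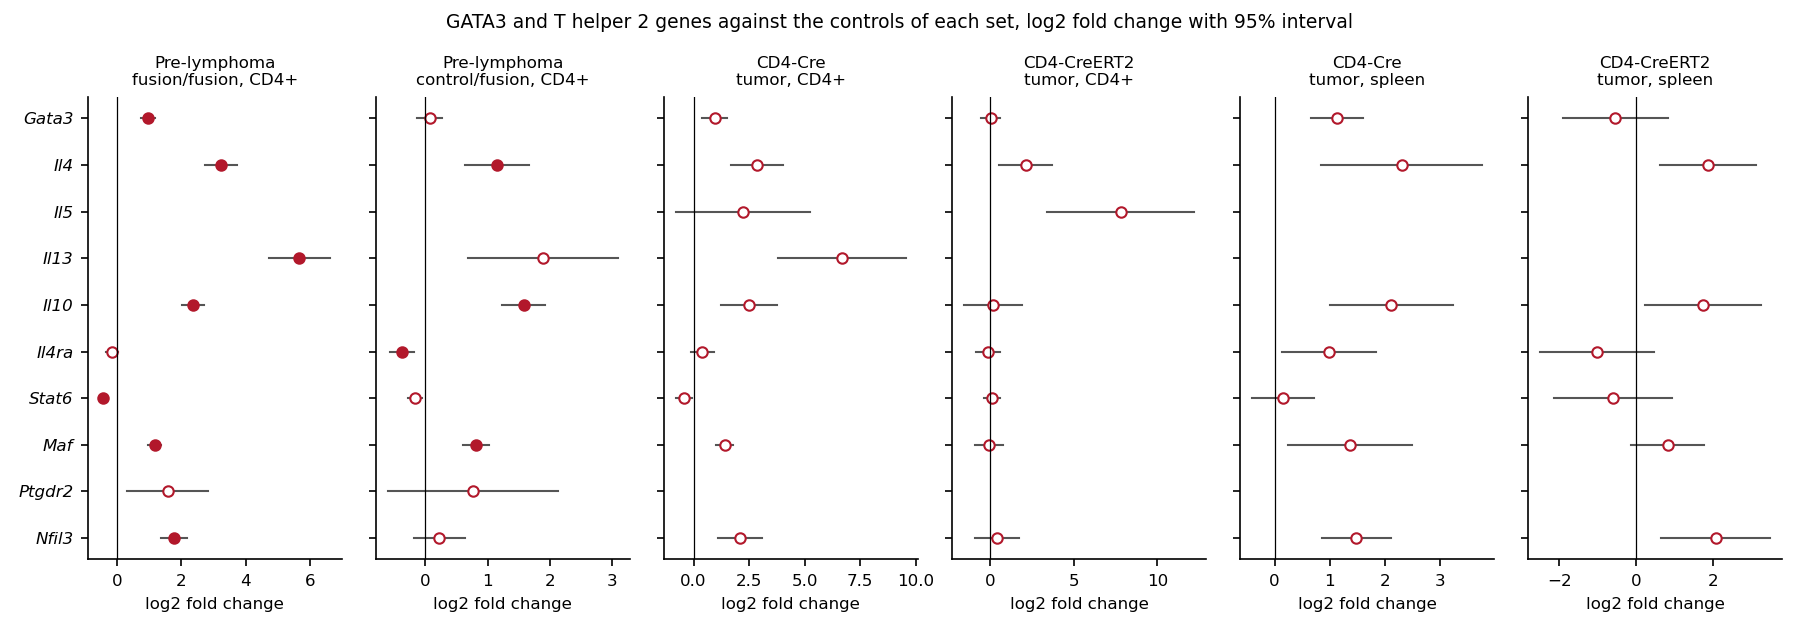
Log2 fold change with 95% interval (x axes, each panel with its own scale) of the 10 genes against the controls of each set; filled points have an adjusted p under 0.05 and genes below the filter on low counts are left blank. Filled points lie in the pre-lymphoma panels, and intervals in the tumor panels are wider; the fitted Il13 value in CD4-Cre tumor cells rests on 1 control count.

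CD4+ cells were set against spleens of the same set to ask which transcripts were higher in T cells than in whole spleen. In tumor mice Gata3 was higher in CD4+ cells than in spleen by a log2 fold change of 2.66 ± 0.28 (adjusted p = 0.0039) and Maf by 2.44 ± 0.44 (adjusted p = 0.013). In control mice the values were 2.78 ± 0.30 for Gata3 (adjusted p = 0.0034) and 2.33 ± 0.45 for Maf (adjusted p = 0.032). These 2 of the 9 genes tested passed in each, where 2.66% of all genes rose in tumor and 1.16% in control mice. With only the 2 groups compared in the fit, 0 of the 9 tested passed in tumor mice, where 0% of all genes rose, and 4 of the 7 tested in control mice (Gata3, Il4, Il10 and Maf), where 12.9% of all genes rose. With the mouse number as a block, 4 of the 9 passed in tumor mice, the same 2 with Il4 and Il10, where 3.98% of all genes rose, and 3 in control mice, where 4.48% did. Among controls the Maf call was lost without any 1 of the 6 libraries (adjusted p from 0.0748 to 0.155) and the Gata3 call without the spleen of VM216 (adjusted p = 0.0551). In CD4-CreERT2 mice 0 of the 9 genes passed by edgeR's test in either comparison, with 1972 and 1018 genes of 18529 at an unadjusted p under 0.05 in tumor and control mice, and there 0% of all genes passed. DESeq2 called 3 of the 8 that it gave an adjusted p higher in tumor mice (Gata3, Il4 and Maf), with 1.58% of all genes, and 1 of 9 in control mice (Maf), with 0.720% of all genes. When only the 2 control groups were in the fit, without the tumor libraries and their spread, 5 of the 7 tested rose (Gata3, Il4, Il10, Maf and Nfil3), where 10.3% of all genes did, and Il4ra fell, where 11.3% did.

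Whether the tumor change differed between tissues or between models was tested directly with edgeR, and 0 of the genes tested passed, nor did any with DESeq2. Of them 0, 0, 1 and 2 had an unadjusted p under 0.05 in the 4 tests, in the order below, where 0%, 0%, 0.00511% and 0.0450% of all genes passed, all of them higher. The adjusted p for CD4+ cells against spleen ran from 0.717 to 0.978 in CD4-Cre and from 0.972 to 0.981 in CD4-CreERT2 mice. For CD4-CreERT2 against CD4-Cre it ran from 0.426 to 0.949 in CD4+ cells and from 0.256 to 0.889 in spleen. An adjusted p above the threshold does not show that the models act alike. The tables of the models may also have been counted in different ways.

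Across all 11 groups, Gata3 was highest in CD4-Cre tumor CD4+ cells, at 232 ± 80.6 CPM (SD, n = 4), and lowest in CD4-CreERT2 tumor spleens, at 16.0 ± 11.5 CPM (SD, n = 3). The sets were scaled separately, and the CD4-CreERT2 tables were laid out differently from the others, so this order is a description. From the top, the groups down to CD4-CreERT2 control CD4+ cells overlapped with their neighbours in the order, and all 7 CD4+ groups averaged more Gata3 than all 4 spleen groups. Il4 was likewise highest in CD4-Cre tumor CD4+ cells, at 56.0 ± 41.3 CPM (SD, n = 4), and lowest in CD4-CreERT2 control spleens, at 0.829 ± 0.187 CPM (SD, n = 3). Il13 was instead highest in pre-lymphoma fusion/fusion cells, at 7.47 ± 2.63 CPM (SD, n = 3), without overlap with the next group, CD4-Cre tumor CD4+ cells, at 1.32 ± 1.27 CPM (SD, n = 4). Il5 was highest in CD4-CreERT2 tumor CD4+ cells, at 21.0 ± 28.7 CPM (SD, n = 2), through VM231. Maf was highest in fusion/fusion cells, at 349 ± 28.8 CPM (SD, n = 3), and overlapped there with CD4-Cre tumor CD4+ cells, at 277 ± 53.9 CPM (SD, n = 4).

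The genes most like Gata3 over the 19 CD4+ libraries were found from the root-mean-square difference of log2 CPM, each gene centred on the mean of its set. Of 8966 genes, Mns1 (0.197), Sec11c (0.225), Atxn1 (0.232), Klk8 (0.238) and Alad (0.239) were nearest, against a median difference of 0.54 and a spread of Gata3 itself of 0.47. Of the other genes of the type 2 group, Maf ranked 610, Il4ra 4669, Nfil3 6654, Stat6 6701, Il10 8422 and Il4 8532. For Il4, with a spread of its own of 1.35, the nearest of 11284 genes were Cysltr1 (0.543), Csf1 (0.599), Egln3 (0.634), Kcnmb1 (0.690) and Pif1 (0.690). Here Nfil3 ranked 58, Il10 109, Maf 180 and Gata3 302, while Il4ra ranked 5052 and Stat6 7900. The measure depends on the size of a change as well as its direction, and libraries of a set share their controls and scaling.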

How the data were processed

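Bulk RNA sequencing gave 1 count table per library. Per the labels' protocols, polyA RNA was taken with an RNeasy Micro kit, amplified as full-length cDNA (SMART-Seq v4) and made into Nextera XT libraries. The deposited values are unscaled read counts, 1 per gene. Per the submitters' processing notes they were made with HISAT2 2.1.0 and HTSeq 0.5.4 on mm10. The CD4-CreERT2 tables list Ensembl genes with coordinates, a layout other than HTSeq's own. Another counter may have made them. The strand of counting is not given in the sources used here. Rows for unassigned reads were left out.

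Low genes were removed with filterByExpr, libraries scaled by TMM, and genes tested with the two-sided quasi-likelihood F test of edgeR 4.0.16, adjusted by Benjamini-Hochberg over all genes tested, with a threshold of 0.05. The standard error is the log2 fold change over the square root of F. The 3 pre-lymphoma groups shared 1 fit, each tumor comparison used its own groups, and tissue comparisons used the 4 groups of a set. Levels are TMM-scaled CPM, per kb of the exon length in the CD4-CreERT2 tables where genes are compared. Replicates differed by more than sampling noise (chi-square per degree of freedom of at least 6.32). The fits were tested on simulated counts.

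The 10 genes, lists and tests were chosen with earlier results of these data known. Named besides the 10 genes and label checks are from each list the 4 genes with the largest change that passed, above a mean log2 CPM of 1, or the 2 most abundant where none passed, and the 5 genes most like Gata3 and Il4. Not all of them are printed.

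CD4+ and spleen libraries with the same mouse number were taken as pairs from 1 animal. Deviations from group means of paired libraries correlated at 0.389 to 0.585 in the CD4-Cre set and at -0.102 to 0.477 in the CD4-CreERT2 set. Unmatched pairs of the same status ran from -0.448 to 0.295 and from -0.477 to 0.329. The CD4+ library of VM231 correlated at -0.102 with its own spleen and at 0.329 with that of VM294. Each CD4+ group of the CD4-CreERT2 set held 2 libraries, whose deviations from their mean are mirror images. The values of VM231 are therefore those of VM236 with the sign changed, and cannot decide the pairing of VM231. The unmatched values of this set likewise include matched values with the sign changed. Alternatives were RLE scaling, scaling without receptor, haemoglobin and mitochondrial genes, no filter, DESeq2 1.42.0, other groups in the fit, terms for sex (read from the counts) or mouse, no VM645 libraries, and leaving out each library. Counting intervals (95%, exact) and floors (3 counts) cover counting error only, since amplified reads are not independent molecules.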

Additional observations from a re-analysis of the deposited data

How the results depend on the processing

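For the pre-lymphoma comparisons the counts of genes higher and lower stayed within 1.5 times of those reported, except that the 1 lower gene in control/fusion cells, Il4ra, ranged from 0 to 1 when single libraries were left out. In control/fusion cells, leaving out single libraries gave log2 fold changes from -0.10 to 2.96 for Ptgdr2 and from -0.13 to 0.69 for Nfil3, and Gata3 was at -0.041 with a term for depth class, an alternative chosen after seeing the data. Of 647 fitted changes of single genes under alternatives, 580 kept their direction and side of the threshold, 37 passed where they had not, 22 no longer passed and 8 changed sign; the cause was not tested. In tumor comparisons the count of genes higher, 0 as reported, depended on the method. For CD4-Cre CD4+ cells it was 1 with RLE scaling, 1 with factors computed without receptor, haemoglobin and mitochondrial genes, 5 with no filter on low counts, 6 with DESeq2 and 0 to 3 with single libraries left out. For CD4-Cre spleens it was 1 without the filter, 4 with DESeq2 and 0 to 2 with single libraries left out; Stat6 ranged from -0.000769 to 0.42 there and was -0.074 with a term for sex. For CD4-CreERT2 CD4+ cells it was 1 with DESeq2 and 0 to 2 with single libraries left out; Gata3 ranged from -0.29 to 0.29 and was -0.28 with a term for sex. In those CD4+ cells VM231 was the only male library by the counts, so the term for sex cannot be told apart from that tumor. For CD4-CreERT2 spleens the count of genes higher was 1 without the filter, 2 with DESeq2 and 0 to 1 with single libraries left out. For CD4+ cells against spleens of CD4-Cre controls, 2 genes as reported, the count was 0 to 1 with single libraries left out, 4 with only the 2 groups in the fit and 0 without the VM645 libraries. For those of CD4-Cre tumor mice, also 2, it was 4 without the filter, 4 with DESeq2, 0 with only the 2 groups, 4 with the replicate block on mouse number and 1 without the VM645 libraries. With the replicate block, 3 genes passed in CD4-Cre controls (Gata3, Il10 and Maf), and the block changed no other call. For CD4-CreERT2 mice the count, 0 as reported, was 1 in controls and 3 in tumor mice with DESeq2, and 5 higher and 1 lower in controls with only the 2 groups in the fit. Depth limits Il5, Il13 and Ptgdr2, which had under 50 counts in most libraries.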
